A study of Mus musculus with 20 samples.

Results

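The 10 genes followed here encode immediate early transcription factors: the AP-1 subunits Fos, Fosb, Fosl2, Jun, Junb and Jund and the zinc finger factors Egr1, Egr2, Egr3 and Egr4. They were chosen by gene symbol from a table of raw read counts that lists 32245 symbols, all 10 were present, and all 10 passed the filter on low counts that left 15373 genes for testing. The libraries came from hippocampi of Rbp4-Cre:RiboTag mice, in which Cre recombination puts an HA tag on the ribosomal protein RPL22, so that an antibody pull-down recovers ribosome-bound mRNA from the Cre-expressing cells, here labelled as granule cells. All groups shared this genotype and no treatment is named. They differed in age: 5 libraries at postnatal day 5 (P5) and 3 each at P7, P10, P15, P21 and P28. The labels also give a batch: batch A holds 3 of the P5 libraries with P10 and P15, batch B holds the other 2 P5 libraries with P7, and batch C holds P21 and P28 alone. Age and batch C therefore cannot be told apart wherever P21 or P28 is compared with an earlier age. Rbp4-Cre selects cells by promoter activity, the lysate was made from the whole hippocampus, and the labels do not tie a library to an animal, so every p-value here rests on library-to-library spread, which may be technical.

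AP-1 is a dimer of basic leucine zipper proteins. Fos proteins cannot pair with each other and need a Jun partner, while Jun proteins can also pair among themselves. Egr proteins bind GC-rich sites through their zinc fingers and are held in check by the NAB corepressors. In neurons, synaptic activity and calcium entry switch most of these genes on within minutes through CREB, serum response factor (SRF) and MAP kinase signalling, and their mRNAs decay fast. Jund and Fosl2 are known as the members with a high resting level. In the dentate gyrus, Fos and Egr1 mRNA are the usual marks of recently active granule cells.

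The stretches just upstream of the start site are shown for 5 members whose transcripts rose to P10 or P15 and were lower at P21, and for Jun, which took another course, because CREB and SRF, 2 classical activators of these genes, read short elements there. The sequences are those of RefSeq on GRCm38.p6, 130 bases ending at the base before the start, read 5′ to 3′ along the gene's own strand. Capitals mark the core of the cAMP response element (TGACG, or CGTCA on the other strand) and, in Egr2, the CArG box that SRF binds.
Fos: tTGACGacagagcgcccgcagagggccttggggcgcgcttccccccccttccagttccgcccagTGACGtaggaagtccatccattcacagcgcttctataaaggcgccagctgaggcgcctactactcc
Fosb: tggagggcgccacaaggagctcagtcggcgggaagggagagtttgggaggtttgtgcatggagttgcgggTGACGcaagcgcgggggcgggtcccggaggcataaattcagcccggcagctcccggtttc
Jun: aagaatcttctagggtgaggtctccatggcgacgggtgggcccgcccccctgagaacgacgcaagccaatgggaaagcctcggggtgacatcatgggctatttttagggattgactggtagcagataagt
Junb: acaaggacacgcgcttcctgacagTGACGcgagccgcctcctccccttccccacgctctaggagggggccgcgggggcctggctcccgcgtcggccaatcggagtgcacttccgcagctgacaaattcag
Egr2: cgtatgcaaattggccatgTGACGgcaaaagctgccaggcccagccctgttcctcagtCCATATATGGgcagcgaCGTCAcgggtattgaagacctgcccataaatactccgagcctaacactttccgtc
Egr4: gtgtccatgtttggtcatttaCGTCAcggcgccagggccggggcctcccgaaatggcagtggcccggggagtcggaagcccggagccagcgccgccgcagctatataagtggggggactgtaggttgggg

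The Fos stretch lies at chr12:85473760-85473889 on the plus strand and the Egr2 stretch at chr10:67537739-67537868 on the plus strand. The stretches of Fosb (chr7:19310046-19310175), Jun (chr4:95052223-95052352), Junb (chr8:84978749-84978878) and Egr4 (chr6:85513590-85513719) lie on the minus strand. RefSeq windows of 250 bases upstream and 50 bases after the start were searched for 8 of the 10 members, with 5 windows for Egr2. Egr1 was left out of the search and Egr3 had no window in the RefSeq table, so the counts below cover neither. Within the 250 upstream bases, a TGACG core on either strand was present in 5 of these 8 members: Fos, Fosb, Junb, Egr2 and Egr4. The windows of Jun, Jund and Fosl2 held none. Of 32851 windows of the same length in the RefSeq table, 17.8% held this core. That share is per window, whereas the members were counted per gene, Egr2 once if any of its 5 windows held the core. The whole palindrome TGACGTCA, which contains the core, was in none of the members' windows and in 1.55% of all. Among these 8 members a CArG box was found upstream in Egr2 alone, and in 1.47% of all windows. Sites beyond the 250 upstream bases were not searched. The AP-1 site TGANTCA was in no member's window and in 6.75% of all, and the Egr site GCGNGGGCG was in the windows of Fosb and Fosl2 and in 4.7% of all. Fosl2 and Jund need care here, since their RefSeq starts lie at 671 and -1210 bases from the gene start in the GENCODE vM21 annotation, negative meaning upstream. So does Egr2: the start behind the stretch shown lies at 2394 bases, and the Egr2 window nearest the GENCODE gene start, at 24 bases, held neither the core nor a CArG box. Only exact matches were counted, so near matches such as tgacatca in the Jun stretch are not among them. A match is a description of letters and not a measured binding site, and its absence does not show that a site is lacking.

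Total counts ranged from 15862204 to 24933541 per library, so 3 counts correspond to between 0.12 and 0.189 CPM (counts scaled to a common library size). Every member stood above this floor in every library; the lowest value was Fosb at 0.806 CPM, 14 counts, in a P5 library. CPM values below are scaled with trimmed mean of M values (TMM) factors, and a gene is called where the adjusted p of edgeR's quasi-likelihood test was below 0.05. The 95% intervals were set from the SE by the normal distribution and are somewhat narrower than that test implies. An interval can therefore leave out no change where the unadjusted p of the test is above 0.05. Prox1, the transcription factor that defines granule cells, averaged from 479.9 to 597.4 CPM at the 6 ages. Of 10 members tested in the 5 P5 libraries, none had a library far from the others by Dixon's criterion. In pull-downs of a tissue, fewer cells carrying a transcript and less of it per cell cannot be told apart.

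**Figure D1:**
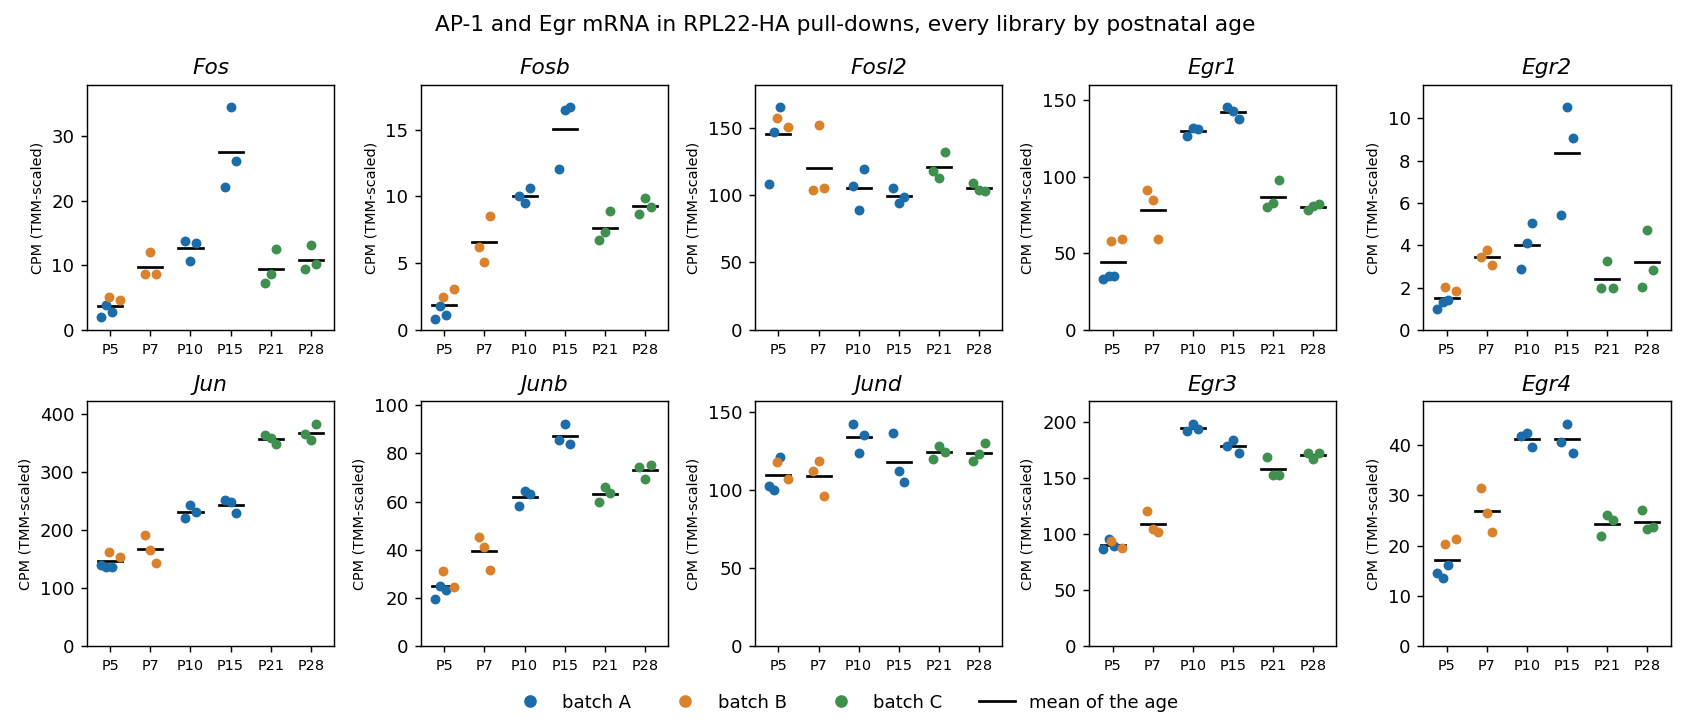
Level of each member (vertical axis, TMM-scaled CPM from 0) in all 20 libraries, by postnatal age (horizontal axis, evenly spaced categories); points are libraries coloured by batch and bars are the mean of an age. Fos, Fosb, Junb, Egr1 and Egr2 have their highest mean at P15, Egr3 and Egr4 at P10, Jun at P28, and Fosl2 at P5.

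Across the 6 ages, 9 of the 10 members differed in a joint test of all ages, against 79.7% of all genes tested. Jund was the exception (adjusted p = 0.0882). Within the span that batch A covers, P5 to P15, 8 members rose, Fosl2 fell and Jund was not called, against 31.6% of all genes called higher and 31.8% lower. The median change of the members was 1.71 on the log2 scale, beside -0.02 for all genes tested.

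Fos, the inducible subunit after which the family is named, had 2.07, 3.82 and 2.74 CPM in the batch A libraries of P5 and 5.11 and 4.69 CPM in those of batch B. It had 8.66, 12.0 and 8.70 CPM at P7, then 13.8, 10.7 and 13.4 CPM at P10. At P15 the libraries held 22.2, 34.5 and 26.2 CPM. Each P15 library stood above every library of every other age. P21 followed with 7.27, 8.61 and 12.5 CPM and P28 with 9.38, 13.2 and 10.1 CPM, so both later ages overlapped P7 and P10 and lay above all P5 libraries. The fitted rise from P5 to P15 was 9.59-fold (log2 change 3.26, SE 0.25, adjusted p = 1.27e-09), taken against the level of batch A.

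Fosb, whose shortened splice form is known for a stable protein that accumulates with repeated activity, rose the most of all members in that comparison, 12.1-fold (log2 change 3.60, SE 0.23, adjusted p = 1.16e-12). The counts here do not separate its splice forms. Its P5 libraries held 0.806, 1.79 and 1.11 CPM in batch A and 2.44 and 3.06 CPM in batch B. At P7 they held 6.22, 5.10 and 8.50 CPM, at P10 10.0, 9.51 and 10.6 CPM, and at P15 12.1, 16.5 and 16.7 CPM. The ranges of P5, P7, P10 and P15 did not overlap, each age standing above the one before. At P21 Fosb had 6.74, 7.32 and 8.90 CPM, and at P28 8.67, 9.91 and 9.22 CPM, below every P15 library.

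Fosl2, which encodes the subunit Fra-2, went the other way. Its P5 libraries held 108, 147 and 165 CPM in batch A and 157 and 151 CPM in batch B. At P15 it had 105, 94.2 and 98.9 CPM, below all P5 libraries; the lowest P5 library, 108 CPM, stood close to the highest P15 library. The fitted fall was 0.49 on the log2 scale (log2 change -0.49, SE 0.16, adjusted p = 0.0151), and without batch A replicate 3 of P5 it was no longer called (log2 change -0.36, adjusted p = 0.0759). At P7, P10, P21 and P28 its libraries lay between 89.2 and 151.8 CPM.

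Jun, the partner with the strongest transactivating domain in the family, followed a course of its own. It rose from 140, 137 and 137 CPM in batch A at P5 (163 and 154 CPM in batch B) to 221, 243 and 231 CPM at P10 and 252, 247 and 230 CPM at P15, and P7 held 192, 166 and 144 CPM. The fitted rise from P5 to P15 was 1.76-fold (log2 change 0.82, SE 0.07, adjusted p = 3.84e-10). At P21 it reached 363, 358 and 348 CPM and at P28 364, 355 and 382 CPM, above every library of P15. No library of the 2 latest ages overlapped any earlier one. Jun and the antisense gene Junos share 232 exon bases on opposite strands; Junos had at most 1.05 CPM in any library.

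Junb, a Jun protein that often acts as a weaker activator, resembled Fos in its timing. The batch A libraries of P5 held 19.6, 25.1 and 23.4 CPM and those of batch B 31.3 and 24.8 CPM. At P10 it had 58.0, 64.2 and 63.1 CPM, and at P15 85.4, 92.2 and 83.7 CPM, the highest of all ages without overlap. The rise from P5 to P15 was 3.84-fold (log2 change 1.94, SE 0.11, adjusted p = 7.84e-12). P7 ranged from 31.7 to 45.4 CPM, P21 from 59.9 to 66.0 CPM and P28 from 69.2 to 75.3 CPM. Junb shares 173 exon bases with Prdx2 on the opposite strand, a gene at 163.9 to 290.1 CPM whose mean fell from 268.2 CPM at P5 to 190.2 CPM at P15; the strand setting of the counting is not given in the sources used here, so the part of these reads in the Junb counts was not tested.

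Jund, the Jun protein with high resting expression, changed least. Its mean lay between 108.9 CPM at P7 and 133.9 CPM at P10, a ratio of 1.23, and single libraries ranged from 96.1 to 142.6 CPM. Against P5 it was called at P10 (log2 change 0.31, SE 0.09, adjusted p = 0.00739), and not at P7 (log2 change -0.05, 95% interval -0.25 to 0.15), P15 (log2 change 0.13, 95% interval -0.06 to 0.31) or P28 (log2 change 0.20, 95% interval 0.02 to 0.38, adjusted p = 0.0621). Jund shares 877 exon bases with the antisense gene Gm11175, which had at most 2.73 CPM in any library.

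Egr1, the Egr factor most used as an activity marker, had 33.5, 35.4 and 35.5 CPM in batch A at P5 and 58.4 and 59.5 CPM in batch B. The P7 libraries held 91.5, 84.9 and 59.5 CPM, the lowest of them level with the batch B libraries of P5. At P10 the values were 126.6, 132.1 and 131.5 CPM and at P15 145.6, 143.4 and 138.0 CPM. These are the 2 highest ages, P15 just above P10 with no overlap, yet the difference between them was not called (log2 change 0.13, 95% interval -0.07 to 0.33). From P5 to P15 Egr1 rose 4.09-fold (log2 change 2.03, SE 0.11, adjusted p = 8.82e-12). At P21 it had 80.7, 82.8 and 97.8 CPM and at P28 78.5, 81.0 and 82.3 CPM, inside the range of P7 or just above it.

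Egr2, known also for its part in hindbrain and Schwann cell development, was the least abundant Egr gene. Its P5 libraries held 0.978, 1.33 and 1.40 CPM in batch A and 2.01 and 1.83 CPM in batch B. At P15 they held 5.45, 10.5 and 9.05 CPM, resting on 104, 204 and 172 counts. The rise was 6.73-fold (log2 change 2.75, SE 0.31, adjusted p = 5.98e-08), with the largest SE of the 10 members. P7 ranged from 3.09 to 3.77 CPM, P10 from 2.89 to 5.06 CPM, P21 from 1.97 to 3.26 CPM and P28 from 2.03 to 4.72 CPM, so these 4 ages overlapped.

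Egr3, an activity-induced factor also needed for muscle spindle development, was the most abundant Egr transcript and the least variable member between libraries. It went from a range of 86.7 to 95.5 CPM at P5 through 102.3 to 121.2 CPM at P7 to 192.6, 198.7 and 194.0 CPM at P10. At P15 it had 179.1, 184.1 and 172.3 CPM, all below P10, and at P21 and P28 it stayed between 153.1 and 173.0 CPM. The rise from P5 to P15 was 1.97-fold (log2 change 0.98, SE 0.06, adjusted p = 1.05e-12).

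Egr4, the member that lacks the usual NAB-binding domain, had nearly equal means at P10 and P15, 41.1 and 41.0 CPM. The P10 libraries held 41.6, 42.2 and 39.4 CPM and the P15 libraries 40.6, 44.1 and 38.4 CPM, with a fitted difference of -0.0017 on the log2 scale (95% interval -0.19 to 0.18). P5 ranged from 13.7 to 21.3 CPM and P7 from 22.7 to 31.4 CPM. From P5 to P15 it rose 2.77-fold (log2 change 1.47, SE 0.10, adjusted p = 5.73e-12). At P21 and P28 it lay between 21.8 and 27.0 CPM, within the range of P7 or just below it.

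**Figure D2:**
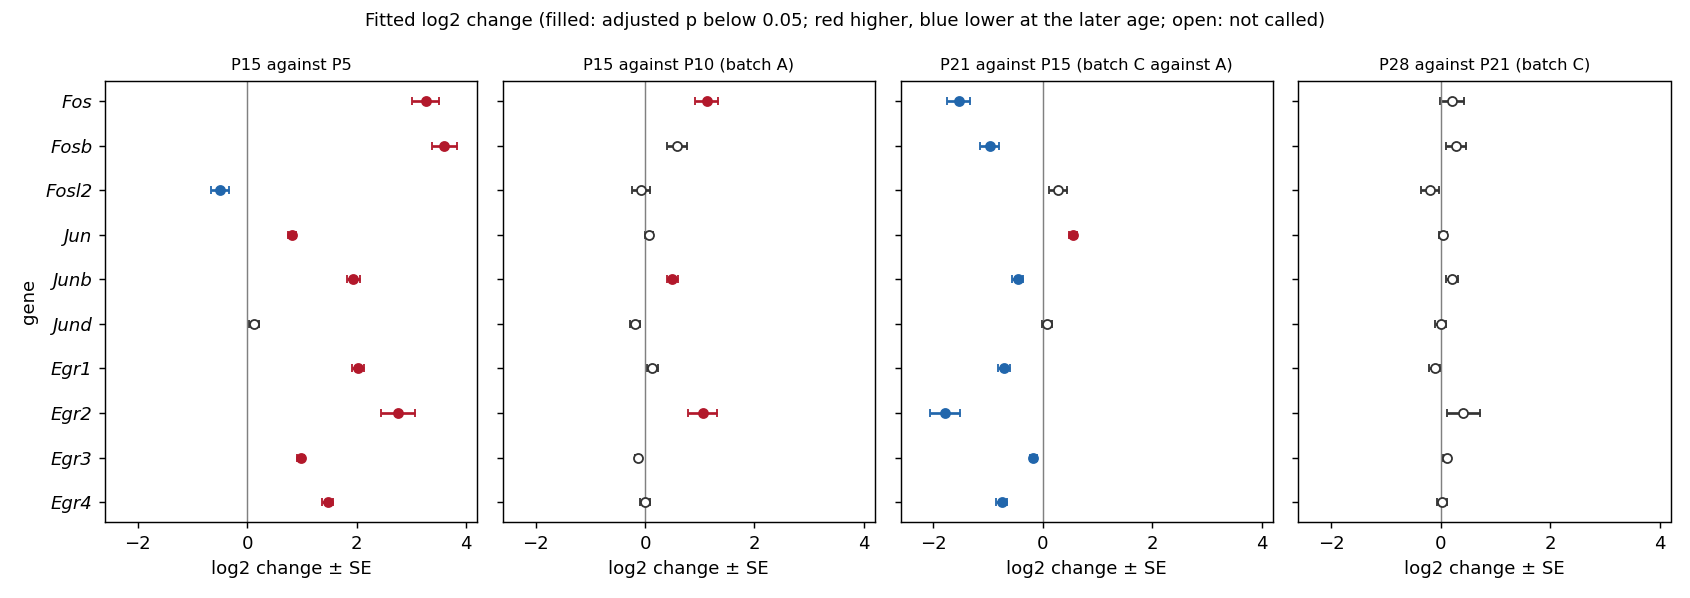
Fitted log2 change of each member with its SE (horizontal axis) in 4 comparisons of ages; filled points passed an adjusted p of 0.05, red for higher and blue for lower at the later age. The 8 called higher are to the right at P15 against P5, 7 are to the left and Jun to the right at P21 against P15, and none is filled at P28 against P21.

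The steps between neighbouring ages show when each family moved. From P5 to P7, Fos, Fosb, Junb, Egr1, Egr3 and Egr4 were called higher, from 1.20-fold for Egr3 to 2.41-fold for Fosb, against 6.15% of all genes higher and 4.89% lower. In batch B alone, which holds both ages, 2 members were called, Fos and Fosb; Junb, Egr1, Egr3 and Egr4 kept fitted changes of 0.49, 0.41, 0.26 and 0.36 on the log2 scale with adjusted p of 0.135, 0.238, 0.136 and 0.149. The count of 6 fell to 2 without batch B replicate 1 of P5, to 1 without its replicate 3, and to 2 without P7 replicate 1. From P7 to P10, 8 members were higher, against 22.5% of all genes higher and 20.3% lower. The largest changes were those of Fosb (3.36-fold) and Egr1 (2.81-fold), and Fosl2 and Egr2 were not called. Leaving out each library in turn gave adjusted p from 0.0114 to 0.19 for Jund and from 0.00787 to 0.0775 for Fos. P7 and P10 share no batch, so this step rests on the batch difference measured at P5; with no batch term Fos changed by 0.37 on the log2 scale (adjusted p = 0.24) in place of 1.14 (adjusted p = 0.0191), and Fosb by 0.60 (adjusted p = 0.0558) in place of 1.75 (adjusted p = 0.000251).

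Counted from P5 to P10, 9 members were higher and Fosl2 was lower (log2 change -0.41, adjusted p = 0.0373), against 30.8% of all genes higher and 30.6% lower. The call of Fosl2 was lost in batch A alone (adjusted p = 0.0671) and with no filter on low counts (0.0676). It was also lost with a term for replicate number (0.0513), and without batch A replicate 2 or 3 of P5 or P10 replicate 1 or 2 (adjusted p from 0.0677 to 0.164). From P10 to P15, inside batch A, 3 members were called, all higher: Fos (2.19-fold, adjusted p = 0.00604), Egr2 (2.08-fold, adjusted p = 0.0272) and Junb (1.41-fold, adjusted p = 0.0107). Here 1.84% of all genes were higher and 2.52% lower. Fosb had a change of 0.59 on the log2 scale with adjusted p = 0.0566, and it was called in DESeq2 (adjusted p = 0.0257) and limma-voom (adjusted p = 0.0335). The call of Fos held without any single library, with adjusted p from 0.0023 to 0.0404. The count of 3 fell to 1 without P10 replicate 1, P10 replicate 3 or P15 replicate 2, and was 5 without P15 replicate 1.

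At P21, 7 members were lower than at P15: Fos, Fosb, Junb, Egr1, Egr2, Egr3 and Egr4. Jun was higher, and Fosl2 and Jund were not called. Of all genes, 14.8% were lower and 14% higher. The members with the largest changes were Egr2 (to 0.289 times its P15 level, adjusted p = 5.12e-05) and Fos (to 0.344 times, adjusted p = 3.14e-05), followed by Fosb (0.509 times), Egr4 (0.592 times), Egr1 (0.612 times) and Junb (0.725 times). Egr3 fell to 0.887 times its level (adjusted p = 0.0341), and this call was lost without P15 replicate 1 or 2 or P21 replicate 2 or 3 (adjusted p from 0.0823 to 0.124). Jun rose 1.47-fold (adjusted p = 2.78e-06). The library ranges did not overlap for 9 of the 10 members, Jund being the exception. How often this holds among all genes was not counted, so the number is a description only. Age and batch cannot be told apart in this comparison.

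Between P21 and P28, both in batch C, no member was called by edgeR, DESeq2 or limma-voom, and none reached an unadjusted p below 0.05. Of all genes, 0.065% were higher and 0.189% lower. The fitted changes ran from -0.20 for Fosl2 to 0.41 for Egr2 on the log2 scale, and the 95% intervals were as wide as -0.18 to 1.00 for Egr2 and as narrow as -0.01 to 0.23 for Egr3. At P28, 8 members were above P5, Fosl2 was below it and Jund was not called, with 35.2% of all genes higher and 36.4% lower. The call of Fosl2 (log2 change -0.41, adjusted p = 0.0323) was lost with no filter on low counts (0.0642) and without batch A replicate 2 or 3 of P5 or P28 replicate 2 or 3 (adjusted p from 0.0663 to 0.149). The rise was 7.47-fold for Fosb, 3.79-fold for Fos, 3.21-fold for Junb, 2.66-fold for Jun and 1.67-fold for Egr4. Of the 4 comparisons with P5 that were fitted, this one held the largest change of Jun.

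P5 was the only age prepared in 2 batches, and there 3 members were higher in batch B than in batch A: Egr1 (1.69-fold, adjusted p = 0.00064), Fosb (2.22-fold, adjusted p = 0.0104) and Egr4 (1.40-fold, adjusted p = 0.00701). Of all genes, 6.65% were higher and 3.42% lower in batch B. Egr3 was not called (log2 difference 0.004, 95% interval -0.13 to 0.14), and Fos differed by 0.77 (adjusted p = 0.117). Of 9 heat shock genes tested, some of whose mRNAs can respond to handling, 4 were higher in batch B and none lower. Among the 9, Hspa1b had 1.84, 1.45 and 0.815 CPM in batch A at P5 and 0.764 and 1.38 CPM in batch B. Hspa1a had 2.01, 2.26 and 2.16 CPM in batch A and 2.68 and 2.42 CPM in batch B. Of 10 granule cell markers, 5 were higher in batch B and 1 lower. The part of the heat shock genes and granule cell markers in the difference was not tested. The batch B count fell to 1 without replicate 3 of that batch.

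Between libraries of the same age, the biological coefficient of variation of the members had a median of 8.95%, beside 8.57% for all genes tested. Egr2 (22.1%), Fos (17.8%), Fosb (13.9%) and Fosl2 (13.5%) varied the most, and Egr3 (5.76%) and Jun (6.62%) the least. Several members were often extreme in the same library. Batch A replicate 1 of P5 was the lowest of its age for 7 members, P7 replicate 3 for 7, and P21 replicate 1 for 7. The ranking at P5 spans batches A and B, and no member was lowest in a batch B library there. At P15 replicate 2 was the highest for Fos, Junb, Egr2, Egr3 and Egr4. Replicate 3 was the lowest for 6 members: Jun, Junb, Jund, Egr1, Egr3 and Egr4. Replicate 1 was the lowest for Fos, Fosb and Egr2 and the highest for Fosl2, Jun, Jund and Egr1.

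**Figure D3:**
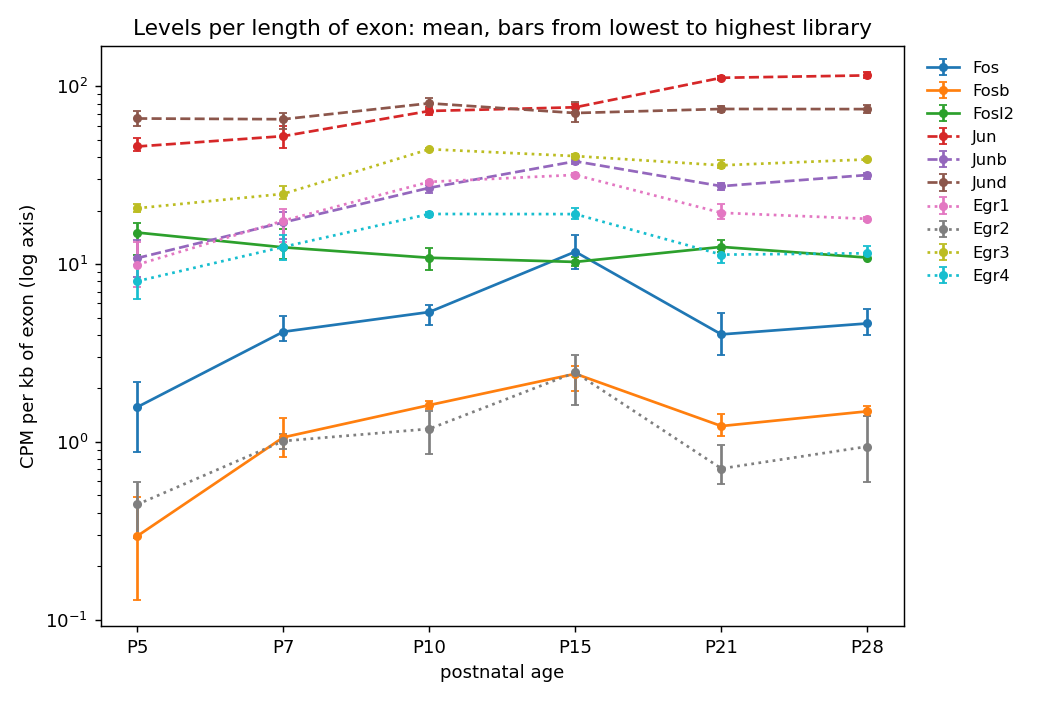
Mean level of each member per kb of exon (vertical log axis, CPM per kb) at each postnatal age (evenly spaced categories), with bars from the lowest to the highest library. Jund leads at P5, P7 and P10, Jun leads at P15, P21 and P28, and Fosb and Egr2 are lowest throughout.

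Levels of different genes were compared per kb of exon, with lengths from GENCODE vM21 on mm10 (from 1668 bases for Jund to 9680 for Fosl2). A length is the union of exons over all annotated transcripts of a gene, as with 7 transcripts and 6243 bases for Fosb. Which transcripts were present was not measured, so the order between genes and the family shares depend on these lengths. At P5 the order ran Jund (65.9 CPM per kb), Jun (45.9), Egr3 (20.6), Fosl2 (15.04), Junb (10.8), Egr1 (9.92), Egr4 (8.01), Fos (1.57), Egr2 (0.444) and Fosb (0.295). Fosl2 and Junb, Junb and Egr1, Egr1 and Egr4, and Egr2 and Fosb overlapped between libraries, and the other neighbours did not. At P15 Jun (76.2 CPM per kb) and Jund (70.8) overlapped at the top, Egr3 (40.5) and Junb (37.9) overlapped next, and Fos (11.7) had drawn level with Fosl2 (10.3), again with overlap. At P28 Jun (115.2 CPM per kb) stood above Jund (74.4) without overlap, and Fos (4.63) was below Fosl2 (10.9).

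**Figure D4:**
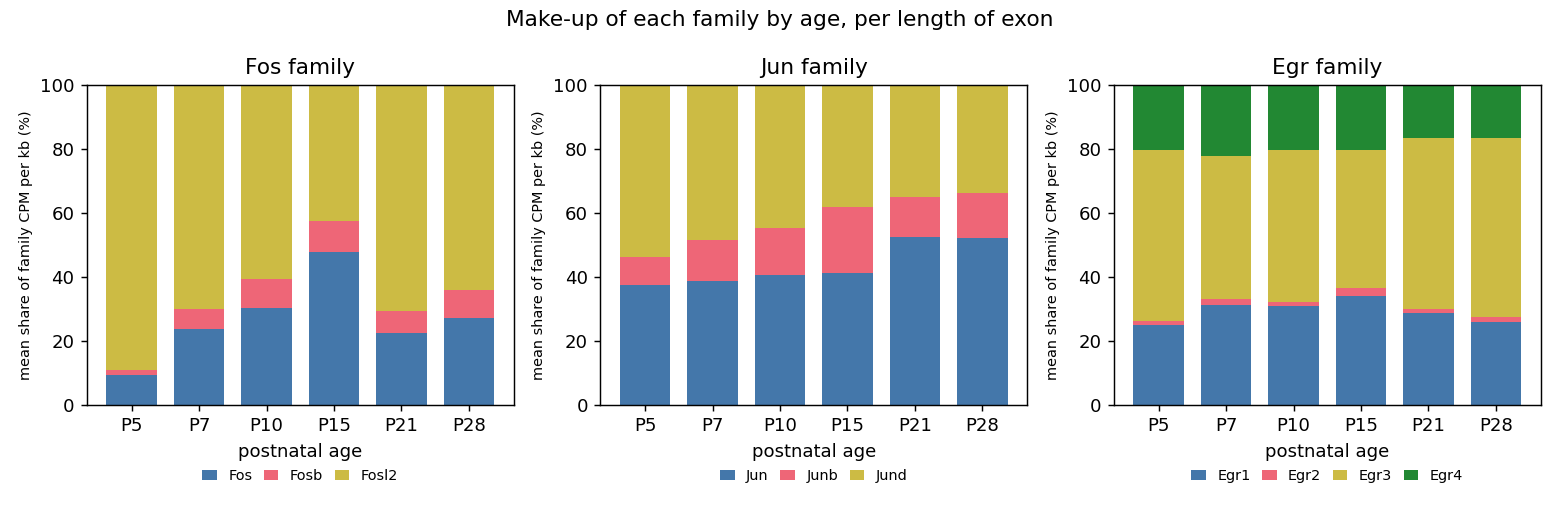
Mean share of each member in the summed CPM per kb of its family (vertical axis, percent) at each postnatal age, as stacked bars for the Fos, Jun and Egr families. Fosl2 shrinks from 89.2% of the Fos family at P5 to 42.5% at P15, and Jun grows from 37.4% to 52% of the Jun family at P28.

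The make-up of the Fos family changed the most. Fosl2 made up 89.2% ± 3.0 (SD, n = 5) of its summed level per kb at P5 and 42.5% ± 6.5 (SD, n = 3) at P15, while Fos went from 9.13% ± 2.3 to 47.7% ± 6.0. At P21 Fosl2 was back at 70.7% ± 3.8 and Fos at 22.4% ± 3.6 (SD, n = 3). In the Jun family, Jund went from 53.8% ± 2.4 at P5 to 33.6% ± 0.84 at P28 and Jun from 37.4% ± 2.0 to 52% ± 0.39. Junb gained share and lost part of it again, with 8.78% ± 1.1 at P5, 20.5% ± 1.6 at P15 and 14.3% ± 0.45 at P28. The Egr family kept its order at all ages, Egr3 first with 53.4% ± 6.2 at P5, 43.2% ± 0.26 at P15 and 56% ± 0.46 at P28, and Egr1 second with 25% ± 4.4, 33.9% ± 0.95 and 26% ± 0.80. Summed over the family, the Jun genes had 122.6 CPM per kb at P5 and 221.3 at P28, and the Fos genes had 16.9 at P5, 24.4 at P15 and 17.0 at P28.

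Among 14 tested partners and relatives of AP-1, 4 were higher and 7 lower at P15 than at P5, with a median log2 change of -0.56. Jdp2, a repressor that pairs with Jun proteins, rose (log2 change 2.55, adjusted p = 2.26e-15). Bach2 and Bach1, which pair with small Maf proteins and repress, fell (log2 change -2.56 and -1.26, adjusted p = 9.69e-16 and 1.36e-11), as did the small Maf gene Mafk (log2 change -0.84, adjusted p = 1.02e-05). Fosl1, the remaining Fos gene, was not tested: it had at most 0.12 CPM in any library, at or below the level that 3 counts give. The Egr corepressors split: Nab2, itself a known Egr target, rose (log2 change 0.93, adjusted p = 4.82e-11), and Nab1 fell (log2 change -0.91, adjusted p = 5.01e-09). The percentages of all genes called in this comparison, given above, apply to these lists too.

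Upstream of the members, 12 of 17 SRF, CREB and MEF2 regulators were higher at P15 than at P5 and 1 was lower, and at P28 16 were higher and none lower. Elk1, an SRF partner, rose by 1.58 on the log2 scale (adjusted p = 7.08e-16), the MEF2 gene Mef2d by 1.29, and the SRF coactivators Mrtfa and Mrtfb by 1.24 and 1.16. At P21 against P15, where 7 members were lower, 9 of these regulators were higher and 1 lower, beside 14% of all genes higher and 14.8% lower. Of 20 MAP kinase and CaM kinase genes, 13 were higher and 6 lower at P15, among them Map2k1, which encodes the kinase MEK1 (log2 change 2.18, adjusted p = 4.77e-17), Camkk1 (1.86) and Mapk14 (1.14). Of 9 phosphatases and other feedback inhibitors of this pathway, 6 were higher and 2 lower, Dusp14 rising by 2.12 (adjusted p = 9.17e-17), Spred2 by 0.72 and Spred1 by 0.53, and Dusp4 falling (log2 change -0.69).

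Of 18 other immediate early genes, 9 were higher and 3 lower at P15 than at P5, with a median log2 change of 0.38. The nuclear receptor gene Nr4a1 rose (log2 change 2.24, adjusted p = 4.46e-11), as did Gadd45b (2.22), Btg2 (1.62) and the clock gene Per1 (0.84). At P21 against P15, 10 of the 18 were lower and none higher (median log2 change -0.56), beside 14.8% of all genes lower. Nr4a1 then changed by -0.93, Gadd45b by -0.64 and Btg2 by -0.43, and Per1 was not called (0.14, adjusted p = 0.0935). Of 17 genes reported elsewhere as AP-1 or Egr targets, 15 were higher and 1 lower at P15 than at P5. Ptgs2, which encodes cyclooxygenase-2, changed by 6.01 on the log2 scale (adjusted p = 1.89e-15), Nptx2 by 1.73, Syn2 by 1.51 and Scg2 by 1.27. The size of the Ptgs2 change rests on few counts at P5, where its mean was 0.289 CPM. Its lowest P5 library held 0.0575 CPM, below the level that 3 counts give. At P21 against P15 the 17 reported targets divided, 4 higher and 6 lower. Nr4a1 and Arc are in both of these lists, and Maff is in the immediate early list and that of AP-1 relatives. Nr4a2 is both in the immediate early list and among the CA pyramidal markers counted below.

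Markers of other cells moved over the same ages, and their part in the members' changes was not tested. Of 10 granule cell markers, 7 were higher and none lower at P15 than at P5, with Lct at a log2 change of 3.90, Trpc6 at 2.85, C1ql2 at 2.36 and Pdzd2 at 1.80. Their summed level went from a range of 1913 to 2045 CPM at P5 to 2711 to 2873 CPM at P15 and 3128 to 3520 CPM at P21. All 9 oligodendrocyte markers were higher at P15, their sum going from 99.2 to 126.5 CPM at P5 to 1034 to 1813 CPM at P15 and 1051 to 1199 CPM at P21. Mog and Mobp were at 0 in some P5 libraries, as was the interneuron marker Pvalb, and Mbp, Mag and Mobp were among the 9. Endothelial and mural markers, whose cells also express immediate early genes, went down: 8 of 10 were lower and 2 higher at P15, with Cldn5 at -1.64, Cdh5 at -2.35, Pecam1 at -1.79 and Pdgfrb at -1.23. Their sum was 73.5 to 131.2 CPM at P5 and 40.7 to 56.6 CPM at P15.

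Microglia markers were higher for 6 of 10 and lower for none at P15 (among them Tmem119, Trem2, P2ry12, Csf1r and Cx3cr1, from 1.98 to 0.49 on the log2 scale), with sums of 37.2 to 45.9 CPM at P5 and 49.6 to 69.7 CPM at P15. Astrocyte markers were higher for 5 of 10 and lower for 2, with Gjb6 at 3.48, S100b at 2.73, Slc1a2 at 1.64 and Aldh1l1 at -0.57, and sums of 641.8 to 684.5 CPM and 1227 to 1523 CPM. Interneuron markers were higher for 6 of 10 and lower for 3, with Gad2 at 1.03, Gad1 at 0.90, Lhx6 at -1.16 and Dlx1 at -1.48, and sums of 187.1 to 221.7 CPM and 285.5 to 349.2 CPM. At P21 against P15, 7 interneuron markers were lower and 1 higher, beside 14.8% of all genes lower and 14% higher. Age and batch cannot be told apart in that step. Endothelial and mural markers had 4 lower and 1 higher, CA pyramidal markers 3 and 1, and oligodendrocyte markers 1 and 2. Astrocyte, microglia and mossy cell markers each had 2 lower and none higher, and granule cell markers 6 higher and none lower. CA pyramidal markers were higher for 2 of 10 and lower for 3 (Spink8 1.56, Fibcd1 0.80, Pou3f1 -0.54, Cpne4 -0.36, Neurod6 -1.64), summing to 651.7 to 823.7 CPM at P5 and 518.4 to 708.7 CPM at P15. Mossy cell markers were higher for 1 of 8 and lower for 4 (Ajap1 0.46, Rgs12 -0.57, Calcrl -0.64, Nmb -1.09, Gal -2.59), summing to 65.5 to 73.4 CPM and 47.7 to 63.9 CPM. Of 9 tested heat shock genes, 4 were higher and none lower at P15 (Hspa1b 1.64, Hspa1a 1.17, Hsph1 0.45, Hspa8 0.18).

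The genes closest to each member in pattern were ranked by Pearson correlation of log2 CPM over the 20 libraries among 11213 genes, as a description only, since libraries of an age share their age and batch. Nr4a1 was closest to Fos (r = 0.95), with 12.3 CPM at P5, 52.8 at P15 and 27.6 at P21, and Rab15 and Rapgef4 came next. Kifc2 was closest to Fosb (r = 0.96), ahead of Speg and Mical2. Fam131a was closest to Junb (r = 0.98), with Ppp2r2c and Arc (r = 0.97) after it. Arc, which encodes a postsynaptic protein and is itself an immediate early gene, had 12.2 CPM at P5, 86.7 at P15 and 62.5 at P21. Jun matched other genes the best of all members, Gfod1 at r = 0.99 with 86.4 CPM at P5 and 225.8 at P28, followed by Pnmal1 and Bcas3. Egr1 was closest to Rab15 (r = 0.98), then to the neurofilament gene Nefl and to Spata2l, and Rab15 was also among the 3 closest genes of Egr2. Egr3 was closest to Nptn (r = 0.98), Gal3st3 and Cacnb1, and Egr4 to Rnf39 (r = 0.97), Vxn and Ptdss2. Egr2 was closest to Elk4 (r = 0.89) and Spop. Fosl2 (Ssbp2, r = 0.89, then Ube4b and Wnk3) and Jund (Scand1, r = 0.91, then H1fx and Ube2m) had looser matches.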

How the data were processed

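Ribosome-bound mRNA from hippocampi of Rbp4-Cre:RiboTag mice was sequenced from poly-A libraries made with a stranded kit, per the labels' protocols. The authors deposited raw counts per gene symbol; reads were handled with STAR 2.7.5b, SAMtools 1.10 and featureCounts on mm10, per the submitters' processing notes. For annotation, strand setting and reads with several matches, details were not given in the sources used here. Here the deposited counts of 20 libraries (15862204 to 24933541 counts each) were fitted in R 4.3.3 with edgeR 4.0.16: TMM factors, a filter on low counts by age (15373 of 32245 symbols), a mean per age plus a batch B term, estimable from P5,, and robust quasi-likelihood tests with Benjamini-Hochberg adjustment over all genes tested, threshold 0.05. With 13 residual degrees of freedom, simulated data returned 78.6% of 2-fold and 54.5% of 1.5-fold changes for P15 against P5 over 15094 genes. There, changes were set in a small part of the genes and no batch effect was added, whereas 9747 of 15373 genes were called in the real comparison. These rates therefore need not hold for the real data. DESeq2 1.42.0 and limma-voom (limma 3.58.1), other scalings, filters and batch handling, and leaving out each library were tried. Replicate numbers did not pair libraries. Exon lengths and positions came from GENCODE vM21, matched by symbol for 97.7% of symbols and all 10 members; promoter letters came from RefSeq. The members and lists were chosen with earlier results of these data known. The rule named all 10 members, up to 4 genes of each list with the smallest p for P15 against P5 (all where 6 or fewer passed), and the 3 genes with the most similar pattern to each member, leaving out predicted genes and those under a mean of 5 CPM at every age. Other genes given with values were chosen after their values were seen: Prox1, as the granule cell marker, Fosl1, and the genes that overlap members. Some genes that the rule names are not reported here.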

Additional observations from a re-analysis of the deposited data

How the results depend on the processing

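Of 2640 values of single members under an alternative, 2542 kept their side of the threshold, 76 were called in the fit described above but not under the alternative, 22 the reverse, and none that was called changed sign; 60 values not called in either fit changed sign, the largest of them being 0.13 in size on the log2 scale under the alternative. P15 against P5 lost 1 of 300 values, and P21 against P15 lost 4 of 290. The number of members called for P7 against P5 was 6, and it was 3 with limma-voom and 2 with the libraries of batch B alone. Leaving out each library in turn gave 1 to 6 for P7 against P5, 1 to 5 for P15 against P10 and 1 to 4 for batch B against batch A at P5. Scaling by total counts in place of TMM shifted the median of all genes by up to -0.13 on the log2 scale (P10 against P5). It moved the share of calls that were higher from 55.7% to 18% for P7 against P5, from 50.1% to 37.6% for P10 against P5, from 49.8% to 39.2% for P15 against P5, and from 25.6% to 51.5% for P28 against P21. Under it Egr3 and Egr4 were not called for P7 against P5, nor Jund for P10 against P5, and no called member changed direction. With no batch term, 3586 genes were called for P7 against P5 in place of 1698, and 405 in place of 670 for P15 against P10. DESeq2 called 168 genes for P28 against P21 where edgeR called 39.

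Libraries with the same replicate number at different ages did not deviate together (correlations from -0.256 to 0.248 over 55 pairs, median -0.006, and 6 of 20 libraries were closest to their own number). With a replicate block added, 4 members were called for P7 against P5 (6 without it), 8 for P10 against P7, 3 for P15 against P10, 8 for P21 against P15, 0 for P28 against P21, 9 for P10 against P5 (10 without it), 9 for P15 against P5, 9 for P28 against P5, 4 for batch B against batch A at P5 (3 without it), and 8 for any difference between ages (9 without it). Depth limits Egr2 and Fosb at P5, where libraries held 17 to 42 and 14 to 62 counts.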
